A study of Mus musculus with 9 samples.

Results

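The 33 genes described here encode enzymes and regulators of oxidant defense in LT-HSCs, the long-term repopulating hematopoietic stem cells of the bone marrow. They were listed by function, among them target genes of the transcription factors FoxO and NRF2, and were found in the count table by gene symbol through the Ensembl mouse identifiers. All 33 were among the 47643 genes of the table, and all 33 passed the filter on low counts, which left 18205 genes. RNA was sequenced from cells sorted by the surface phenotype Lin-cKit+Sca1+Flk2-CD48-CD150+ from lethally irradiated recipients of C57BL/6 donor marrow, with 3 libraries for each of 3 genotypes and 9 in all. TKO cells carried Mx1-Cre, floxed alleles of both Pik3ca and Pik3cb (lox/lox) and a germline deletion of Pik3cd (Pik3cd-/-), so that pIpC, which switches on the interferon-inducible Mx1 promoter of the Cre transgene in blood and other cells, removes the p110α and p110β genes from a background already lacking p110δ. The δKO littermate controls carried the same floxed alleles and deletion without Cre, so p110α and p110β stay in place, and WT controls carried Mx1-Cre and no floxed allele. Recipients of all 3 genotypes received 2 injections of 250 μg pIpC 48 hours apart, and marrow was taken 4 weeks after pIpC. Cells of the 7 recipients per group were pooled before staining, while the series calls the libraries biological replicates, so the spread between libraries is the only error measured here. If the libraries of a genotype came from the same pool, this spread and the p-values do not hold the variation between mice. The ages of the mice were not given in the labels, while the study's methods give the age of the recipients, which were B6.SJL mice.

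Reactive oxygen species are removed in a relay. Superoxide dismutases (Sod1 in the cytosol, Sod2 in mitochondria) turn superoxide into hydrogen peroxide, and catalase, the glutathione peroxidases and the peroxiredoxins reduce the peroxide. Glutathione peroxidases draw electrons from glutathione, which glutathione reductase recycles with NADPH, and peroxiredoxins draw them mainly from thioredoxin, which thioredoxin reductases recycle with NADPH. NRF2 (Nfe2l2) drives many of these genes once its inhibitor KEAP1 lets it go, and FoxO factors, which AKT holds out of the nucleus when PI3K signaling is active, drive Sod2 and Cat among others. Loss of FoxO factors in mice is known to raise oxidant levels in HSCs and to exhaust them.

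The libraries held 31300343 to 60386097 counts, of which the 33 genes took 0.248% to 0.434%. LT-HSC markers (10 of 10 detected) summed to 1272 to 1508 CPM (counts relative to the library's total, scaled with edgeR's TMM factors) in WT, 1237 to 2749 in δKO and 1833 to 2122 in TKO, so the TKO sums lay above the WT sums. Neutrophil markers were also detected (10 of 10, none at 0 in all libraries), although the sort excluded lineage-positive cells. Their sum ranged from 1734 to 9234 CPM in WT, from 163 to 4312 in δKO and from 93.0 to 1125 in TKO. The genes that made up this sum differed between libraries. Elane was 2306 of 2821 CPM in WT replicate 1 and 532 of 9234 in WT replicate 3, where Ngp was 3844. T and NK cell markers (3 of 8 detected) summed to 79.9 to 232 CPM in WT, 3.87 to 193 in δKO and 25.0 to 67.1 in TKO, with TKO below WT. Most of this sum was 1 gene, Nkg7, at 73.4 to 231 CPM in WT and 16.5 to 65.4 in TKO. Cd3d (0.336 to 6.49 CPM in WT, 0.593 to 8.17 in TKO) and Klrb1c overlapped between these genotypes. The part of these shifts in the TKO against WT differences was not tested. One δKO library carries a number in the count table that no label has, and it is called the unnumbered δKO library. Among the targeted genes, Pik3cb lay at 44.6 to 63.6 CPM in WT, 33.2 to 101 in δKO and 25.5 to 33.9 in TKO, Pik3cd at 98.2 to 139, 38.5 to 91.2 and 71.2 to 73.5, and Pik3ca at 45.8 to 65.0, 41.3 to 88.2 and 52.8 to 68.0. Counts cover whole genes, so reads from a transcript that lost some exons are still counted.

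The oxidant defense genes differed widely in abundance in WT LT-HSCs. Measured per exon length as RPKM (reads scaled to exon length and library total), Gstm1, a glutathione transferase, and Gpx1, the cytosolic glutathione peroxidase, had the highest levels at 386 ± 259 and 385 ± 46.2 RPKM (mean ± SD, n = 3), and this pair did not differ beyond its spread. The ferritin light chain gene Ftl1 followed at 202 ± 21.7 RPKM, then thioredoxin 1 (Txn1) at 166 ± 25.6 and the ferritin heavy chain gene Fth1 at 125 ± 20.4. Sod1, at 84.4 ± 19.9 RPKM, and glutathione reductase (Gsr), at 79.9 ± 27.3, were next and overlapped within their SD. The lower end was formed by Gss, the last enzyme of glutathione synthesis, at 2.26 ± 0.613 RPKM, by heme oxygenase 1 (Hmox1) at 1.66 ± 0.444 and by the mitochondrial thioredoxin reductase Txnrd2 at 1.41 ± 0.0991. In δKO and TKO LT-HSCs Gpx1 was first, at 449 ± 65.8 and 251 ± 119 RPKM. Gstm1 went from place 1 in WT to place 4 in TKO, at 118 ± 57.9 RPKM, and Gsr from place 7 to place 10, at 25.2 ± 13.5 RPKM.

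**Figure D1:**
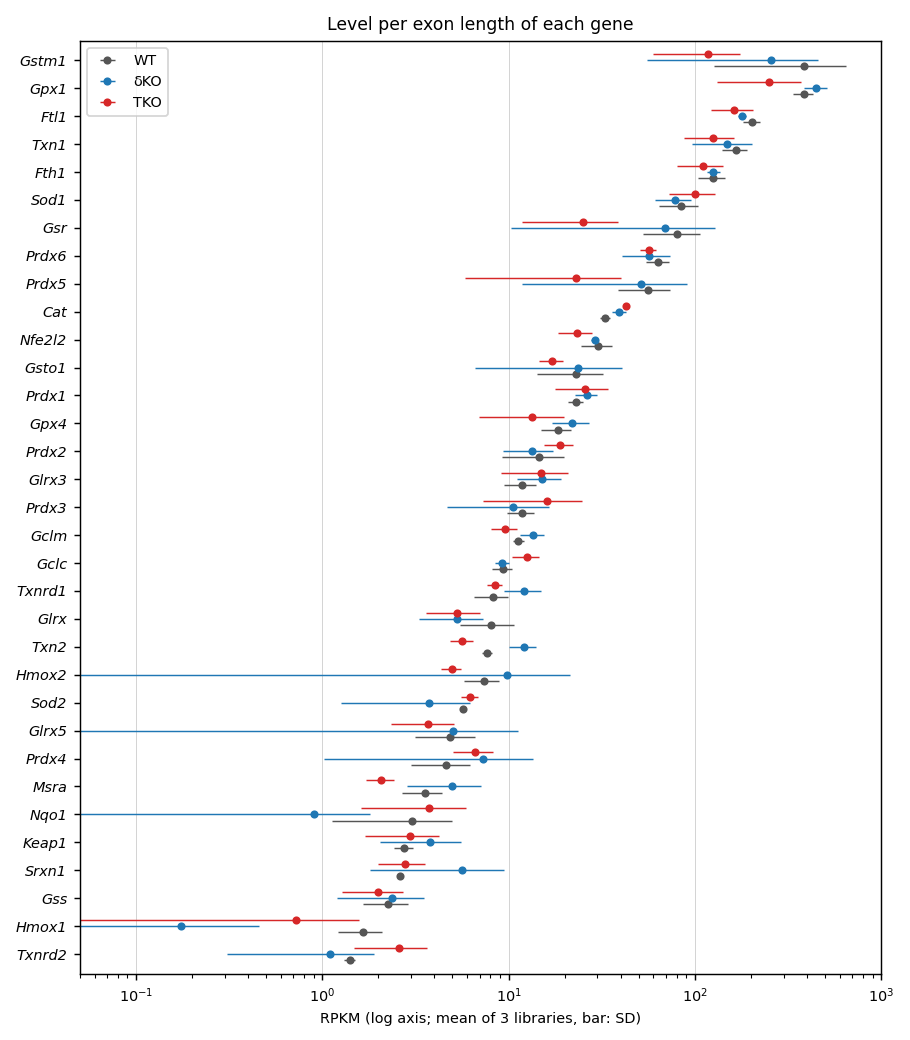
Mean level of each of the 33 genes per exon length (horizontal log axis, RPKM) in WT, δKO and TKO LT-HSCs, ordered by the WT level, with bars of 1 SD over 3 libraries (bars that reach the left edge extend to 0 or below). Gstm1 and Gpx1 head the order in WT at 386 and 385 RPKM, and the widest bars at a high level belong to Gstm1 and Gsr.

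No member passed the test in any comparison. By the quasi-likelihood test of edgeR, which used the 9 libraries together and was adjusted over all 18205 genes, 0 of 33 members reached an adjusted p under 0.05 with a change over 2-fold in TKO against WT, where 0.00549% of all genes did, 0 of 33 in TKO against δKO (0% of all genes) and 0 of 33 in δKO against WT (0.00549%). At an unadjusted p under 0.05 there were 2 of 33 members in TKO against WT (4.19% of all genes), 4 of 33 in TKO against δKO (10.2%) and 0 of 33 in δKO against WT (7.01%). All 6 of these differences in edgeR were toward a lower level in TKO, a direction in which 2.5% of all genes reached that p against WT and 5.56% against δKO. At the same unadjusted p, DESeq2 on all 9 libraries had 3 members in TKO against WT (5.62% of all genes) and 7 in TKO against δKO (11.5%). Of these 10 differences 7 were toward a lower level in TKO and 3 toward a higher one (Cat against WT, Txnrd2 and Nqo1 against δKO). It called 0, 1 and 0 members in these comparisons, beside 0.657%, 2.84% and 1.04% of the genes it tested, and DESeq2 on the 2 genotypes compared called 2, 0 and 0, beside 2.96%, 1.52% and 1.03%. Comparisons with TKO share the TKO libraries and are not independent of each other. In these bulk libraries, fewer cells of a type and less RNA per cell cannot be told apart.

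The direction of the fold changes was mixed. In TKO against WT, 14 members lay above 0 on the log2 scale and 19 below, with a median fold change of -0.18, while the median of all genes was 0.02. In TKO against δKO, 10 lay above and 23 below, with a median of -0.24 beside -0.06 for all genes. In δKO against WT the members were split 17 to 16, with a median of 0.02 beside 0.05. Libraries of a genotype did not move as a block. The median over the members of their log2 CPM, centered on the 9 libraries, was -0.29 in TKO replicate 1, -0.18 in TKO replicate 3 and 0.23 in TKO replicate 2, which was the highest of all 9 libraries.

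By the plain criterion that the 3 libraries of a genotype lie entirely above or below those of another, 2 members were higher in TKO than in WT (Cat and Txnrd2, beside 6.88% of all genes) and 4 were lower (Txn2, Msra, Gsr and Gstm1, beside 7.47%). Against δKO, 3 members were higher in TKO (Cat, Gclc and Nqo1, beside 6.98%) and 5 were lower (Gpx1, Txn2, Txnrd1, Msra and Gclm, beside 4.74%). Between δKO and WT, 3 were higher in δKO (Cat, Txn2 and Txnrd1, beside 4.13%) and Hmox1 alone was lower (beside 7.39%). In CPM without TMM factors some of these separations were lost, while other members separated. Gpx1, Txnrd1, Msra and Gclm then overlapped between TKO and δKO, and Txn2 and Msra between TKO and WT. Cat, Txn2 and Txnrd1 then overlapped between δKO and WT.

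**Figure D2:**
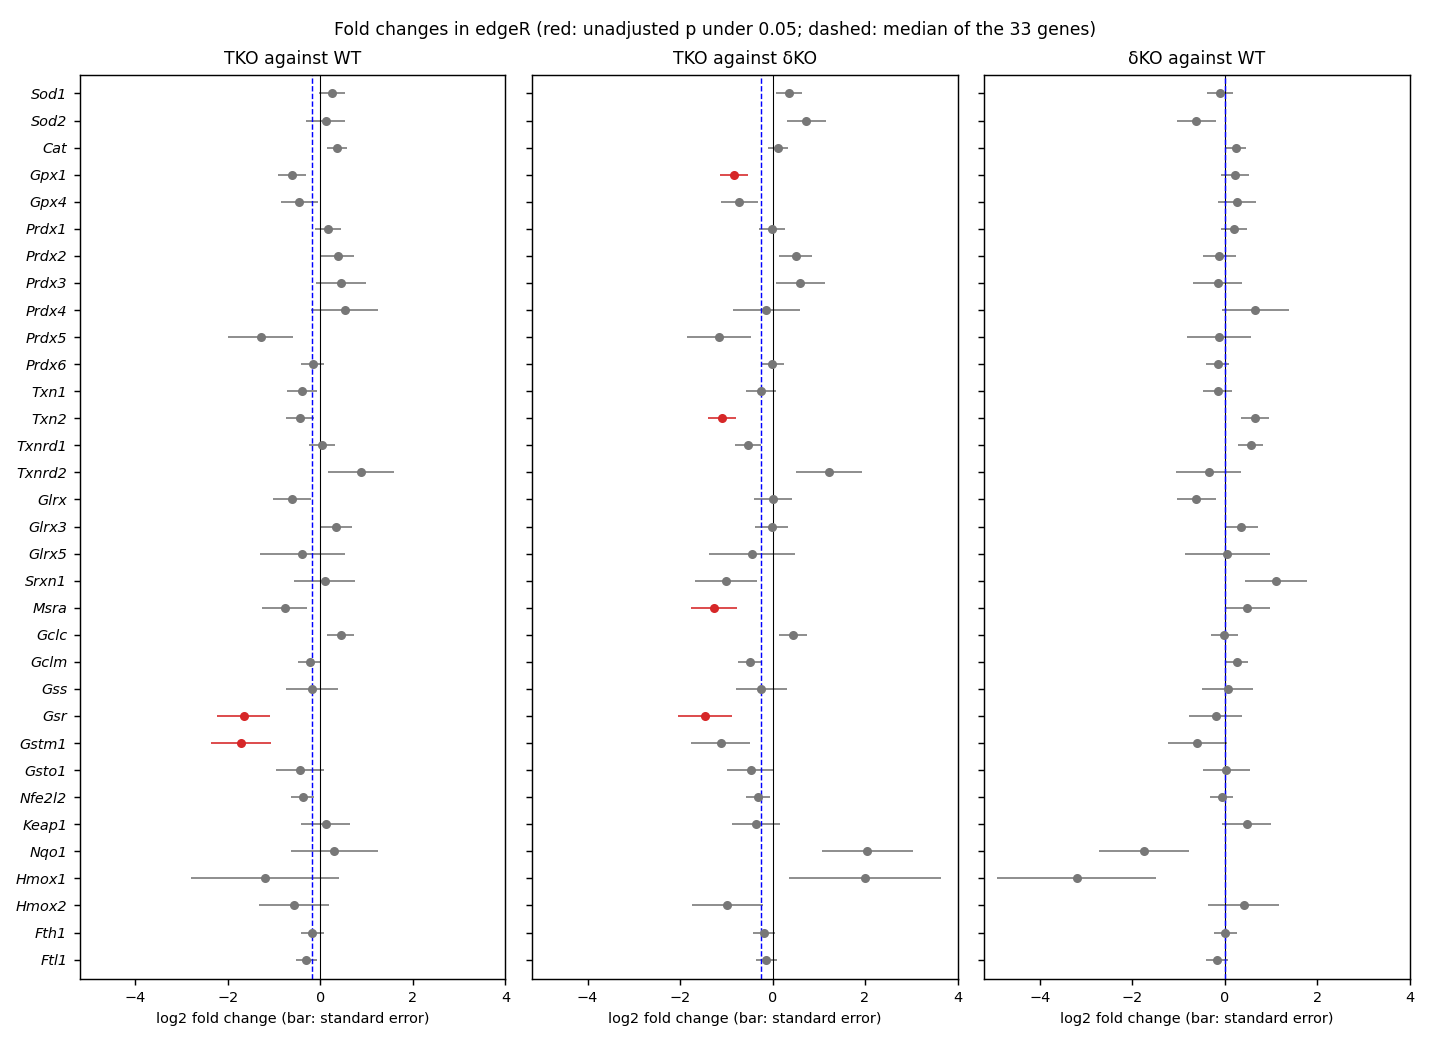
Log2 fold changes of the 33 genes from edgeR in the 3 comparisons (horizontal axis), with bars of 1 standard error. Red marks the 6 values with an unadjusted p under 0.05, which all lie below 0 and involve TKO LT-HSCs, and the dashed lines mark the medians of -0.18, -0.24 and 0.02.

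Among the genes that remove superoxide and peroxide, Gpx1 was the one with an unadjusted p under 0.05 in edgeR. Gpx1 reduces hydrogen peroxide with glutathione in the cytosol and mitochondria. Its level was 624, 491 and 548 CPM in WT replicates 1 to 3, 571 and 618 in δKO replicates 1 and 2, 754 in the unnumbered δKO library and 247, 559.6 and 278 in TKO replicates 1 to 3. All TKO libraries lay below all δKO libraries, although TKO replicate 2 was within the WT range and came close to δKO replicate 1. Without TMM factors TKO replicate 2 lay above δKO replicate 1. The fold change of TKO against δKO was -0.84 ± 0.302 (log2 ± SE, unadjusted p under 0.05, adjusted p = 0.465, edgeR's quasi-likelihood test). DESeq2 on all 9 libraries gave it an adjusted p of 0.198, and the value was -1.31 without TKO replicate 2 and -0.63 without TKO replicate 1.

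Catalase (Cat), a heme enzyme that splits hydrogen peroxide without an outside electron donor, had the narrowest range of the 33 genes over the 9 libraries. It ranged from 80.6 to 91.0 CPM in WT, from 92.6 to 108.48 in δKO and from 108.62 to 117 in TKO. The 3 genotypes did not overlap, but δKO and TKO nearly met, and without TMM factors δKO overlapped WT. The highest of the 9 values was 1.45 times the lowest. With edgeR none of the 3 comparisons gave Cat an unadjusted p under 0.05, and DESeq2 on all 9 libraries did so for TKO against WT, with no call.

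Sod1 ranged from 245 to 394 CPM in WT, from 235 to 366 in δKO and from 319 to 526 in TKO, with overlap throughout. Sod2, a known FoxO target, lay within 55.1 to 58.6 CPM in WT and 55.2 to 68.1 in TKO, while the δKO libraries spread from 16.04 to 64.7. Gpx4, which reduces lipid peroxides in membranes, was at 26.0 to 37.7 CPM in WT, 28.6 to 45.5 in δKO and 14.4 to 35.7 in TKO. None of these separated the genotypes.

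The peroxiredoxins overlapped between genotypes in every comparison. Prdx6, the member that uses glutathione, had the highest level in CPM, at 273 to 353 in WT, 196 to 354 in δKO and 242 to 293 in TKO. Prdx1 and Prdx2, the cytosolic members, ranged from 61.1 to 107 and from 27.9 to 66.1 CPM over all 9 libraries. The mitochondrial Prdx3 ranged from 8.07 to 38.6 CPM, and Prdx4 of the endoplasmic reticulum from 2.62 to 29.1. Prdx5, found in mitochondria and peroxisomes, spanned the widest range of the group, from 77.3 to 146 CPM in WT, 25.9 to 195 in δKO and 12.6 to 85.9 in TKO, and its lowest library was TKO replicate 1. Prdx5 overlaps Trmt112 on the other strand and Prdx2 overlaps Junb and Rnaseh2a, and since the counting is not stated to use strand, reads of such pairs cannot be told apart.

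**Figure D3:**
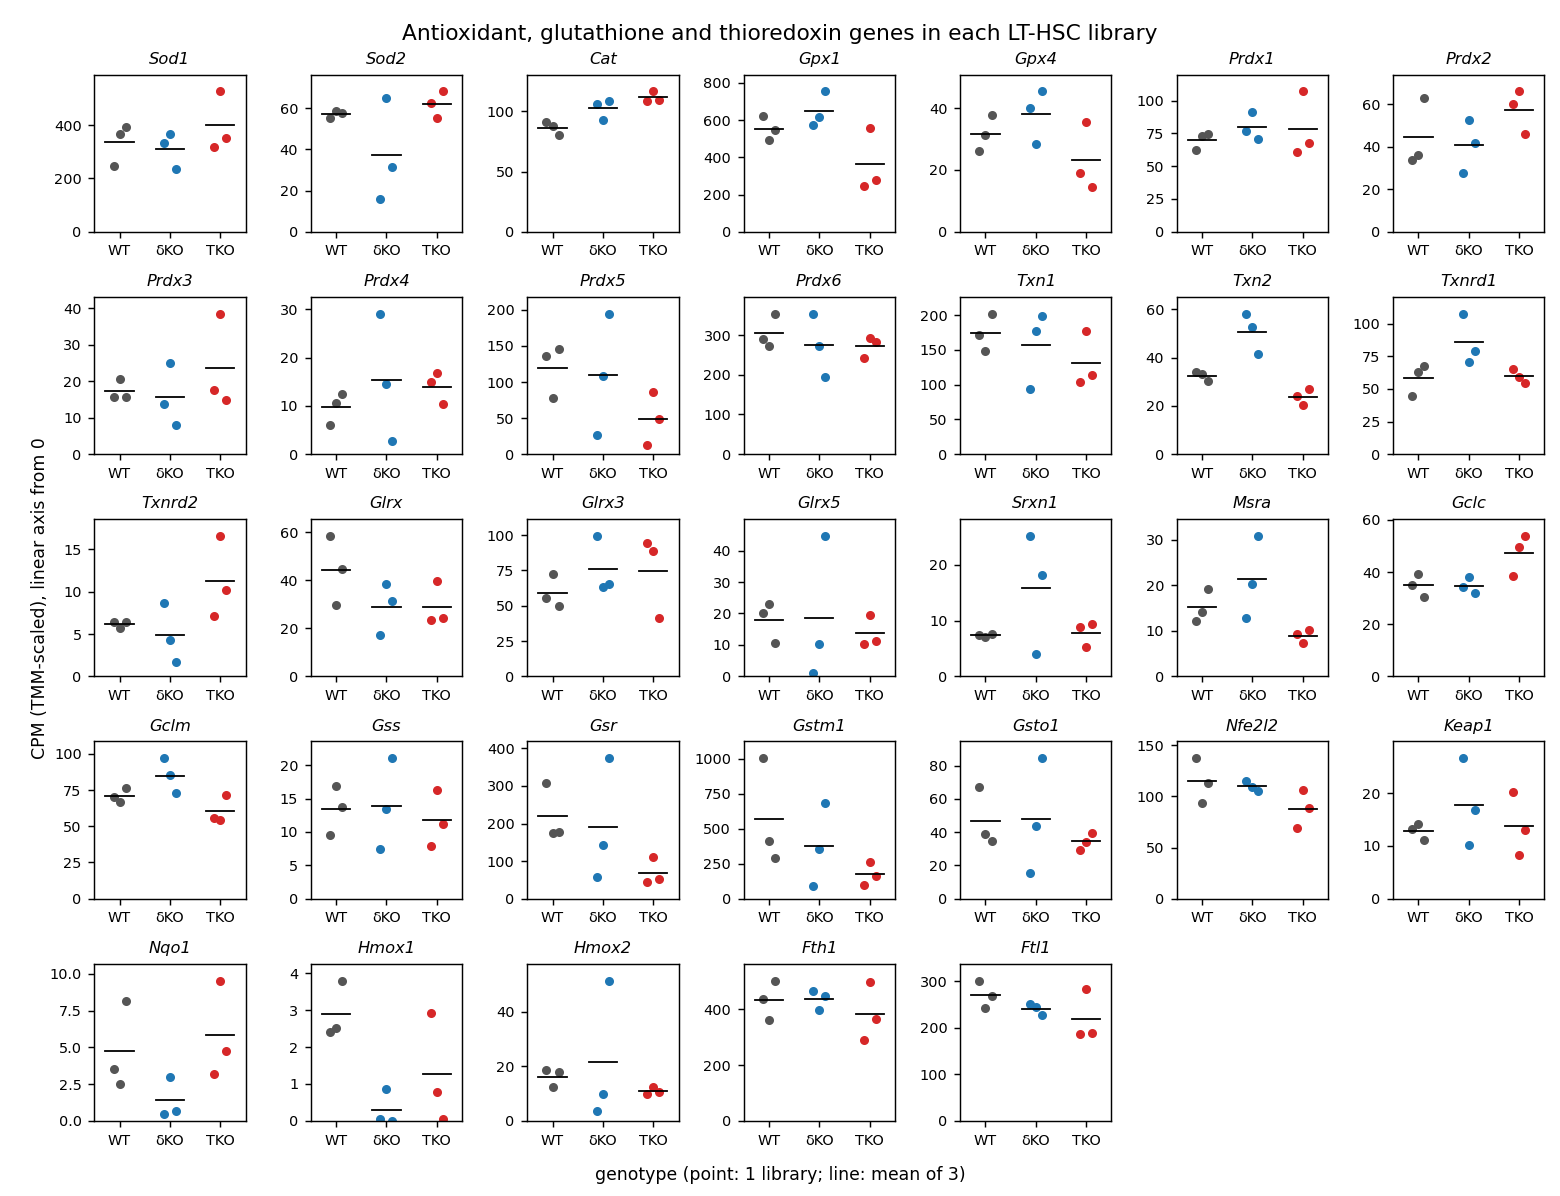
Level of each of the 33 genes in every library (vertical linear axes from 0, CPM), with WT in gray, δKO in blue, TKO in red and a line at the mean of 3 libraries. Txn2 and Cat show no overlap between any of the genotypes, while Prdx5, Gsr and Gstm1 spread widely within WT and δKO.

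In the thioredoxin system the mitochondrial thioredoxin Txn2 separated all 3 genotypes in TMM-scaled CPM. Without the factors WT overlapped both other genotypes. Its product passes electrons to the mitochondrial peroxiredoxins. Its level was 34.0, 33.1 and 30.2 CPM in WT replicates 1 to 3, 58.2 and 52.6 in δKO replicates 1 and 2, 41.6 in the unnumbered δKO library and 24.2, 20.3 and 26.9 in TKO replicates 1 to 3. Every TKO library lay below every WT library, and every δKO library above. The fold change of TKO against δKO was -1.09 ± 0.306 (log2 ± SE, 2.13-fold lower), with an adjusted p of 0.465 by edgeR's quasi-likelihood test. DESeq2 on all 9 libraries called it, with a log2 fold change of -1.11 and an adjusted p of 0.000931, and DESeq2 on the TKO and δKO libraries alone gave an adjusted p of 0.0512. Over 20 alternative settings the fold change stayed between -1.25 and -0.94. Within δKO, Txn2 was lower where the neutrophil marker sum was higher (58.2, 52.6 and 41.6 CPM at sums of 163, 1393 and 4312 CPM). With the log2 of that sum as a covariate the fold change of TKO against δKO was -1.20.

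Of the other parts of the thioredoxin system, Txnrd1 was also highest in δKO without overlap, though only with TMM factors and not without them. Cytosolic Txn1 ranged from 149 to 202 CPM in WT, 93.6 to 199 in δKO and 104 to 177 in TKO. The cytosolic thioredoxin reductase Txnrd1 lay at 44.6 to 67.9 CPM in WT and 54.9 to 65.5 in TKO, both below the δKO range of 70.9 to 108. Its mitochondrial counterpart Txnrd2 was low throughout, at 5.69 to 6.47 CPM in WT, 1.66 to 8.62 in δKO and 7.13 to 16.6 in TKO. Sulfiredoxin (Srxn1), which repairs overoxidized peroxiredoxins, held to 7.04 to 7.55 CPM in WT and 5.29 to 9.43 in TKO but spread from 4.10 to 25.2 in δKO.

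Msra, the reductase that repairs oxidized methionine in proteins, had its 3 lowest values in the TKO libraries. It was at 12.2, 14.2 and 19.2 CPM in WT replicates 1 to 3, 12.7 and 20.3 in δKO replicates 1 and 2, 30.9 in the unnumbered δKO library and 9.22, 7.24 and 10.2 in TKO replicates 1 to 3. The gap between the highest TKO and the lowest WT library was small beside the spread within δKO. Without TMM factors the TKO range overlapped both others. The fold change of TKO against δKO was -1.26 ± 0.492 (log2 ± SE, unadjusted p under 0.05, adjusted p = 0.465, edgeR's quasi-likelihood test), and DESeq2 on all 9 libraries gave an adjusted p of 0.0572. Without the unnumbered δKO library the fold change was -0.90, with an unadjusted p above 0.05.

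The glutaredoxins, which use glutathione to reduce protein disulfides or to carry iron-sulfur clusters, overlapped between genotypes. Glrx ranged from 29.8 to 58.5 CPM in WT, 17.1 to 38.7 in δKO and 23.3 to 39.9 in TKO. Glrx3 ranged from 41.4 to 99.4 CPM over all 9 libraries. Glrx5, the mitochondrial form needed for iron-sulfur clusters, had a δKO spread from 0.997 CPM in replicate 1 to 44.6 in the unnumbered library, which enclosed all WT and TKO values.

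In the glutathione group, 5 of 6 genes had a fold change below 0 in TKO against WT, and 2 of them, Gsr and Gstm1, had an unadjusted p under 0.05 in edgeR. Of all genes 51.2% had a fold change above 0 in this comparison and 2.5% were lower at that p. Gsr, glutathione reductase, regenerates glutathione from its oxidized form. It was at 307, 175 and 178 CPM in WT replicates 1 to 3, 59.0 and 142 in δKO replicates 1 and 2, 374 in the unnumbered δKO library and 44.1, 112 and 52.3 in TKO replicates 1 to 3. All TKO libraries were below all WT libraries, while the δKO libraries ranged from near the lowest TKO value to above the highest WT value. The fold change was -1.66 ± 0.581 against WT (log2 ± SE, adjusted p = 1.00) and -1.46 ± 0.577 against δKO (adjusted p = 0.465) by edgeR's quasi-likelihood test. DESeq2 on the TKO and WT libraries alone called the difference from WT at an adjusted p of 0.0063, and DESeq2 on all 9 libraries did not, at 0.375. Without the unnumbered δKO library the difference from δKO was -0.54.

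Gstm1, which attaches glutathione to reactive compounds, showed a like order of libraries. It was at 1004, 409 and 293 CPM in WT replicates 1 to 3, 92.4 and 356 in δKO replicates 1 and 2, 682 in the unnumbered δKO library and 96.0, 265 and 159 in TKO replicates 1 to 3. TKO and WT did not overlap, WT replicate 1 stood far above the other WT libraries, and δKO covered the whole TKO range. The fold change of TKO against WT was -1.71 ± 0.652 (log2 ± SE, unadjusted p under 0.05, adjusted p = 1.00, edgeR's quasi-likelihood test), and it was -1.02 without WT replicate 1. DESeq2 on the TKO and WT libraries alone called it at an adjusted p of 0.0312, and DESeq2 on all 9 libraries gave 0.466.

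Gsr and Gstm1 were lowest in the same libraries as the neutrophil, monocyte and T and NK cell markers. The summed neutrophil markers were lowest in TKO replicate 1 (93.0 CPM), δKO replicate 1 (163 CPM) and TKO replicate 3 (448 CPM), and these 3 libraries were also the 3 lowest for Prdx5, Txn1, Glrx, Gsr and Gstm1, which are 5 of 33 members (15.2%) beside 794 of 18205 genes (4.36%). Monocyte and macrophage markers (7 of 10 detected, with C1qa, C1qb and C1qc under the filter) ranged from 168 to 418 CPM in WT, 89.8 to 477 in δKO and 48.3 to 240.4 in TKO. They too were lowest in TKO replicate 1 (48.3 CPM), TKO replicate 3 (85.1) and δKO replicate 1 (89.8). In the same order, these libraries were the 3 lowest in T and NK cell markers (25.0, 35.3 and 3.87 CPM). They were the 3 highest in LT-HSC markers (2010, 2122 and 2749 CPM). Which of these marker lists Gsr and Gstm1 follow cannot be told apart here. With the log2 of the neutrophil marker sum as a covariate, the fold changes of TKO against WT were -0.47 for Gsr and -0.51 for Gstm1. By edgeR's quasi-likelihood test 0 of 33 members had a p under 0.05 in that comparison. The sums of WT (1734 to 9234 CPM) and TKO (93.0 to 1125) did not overlap, so this fit cannot separate genotype from the sum. In TKO against δKO the covariate gave -0.61 for Gsr, -0.68 for Gpx1 and -0.93 for Msra. Without the 2 libraries with the highest neutrophil sums, WT replicate 3 and the unnumbered δKO library, TKO against WT was -1.80 for Gsr and -2.03 for Gstm1. Gsr and Gstm1 were highest in WT replicate 1 and the unnumbered δKO library, where Elane made up most of the sum. They were not highest in WT replicate 3, where the sum was highest. The part of cells with these markers in the differences was not tested.

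**Figure D4:**
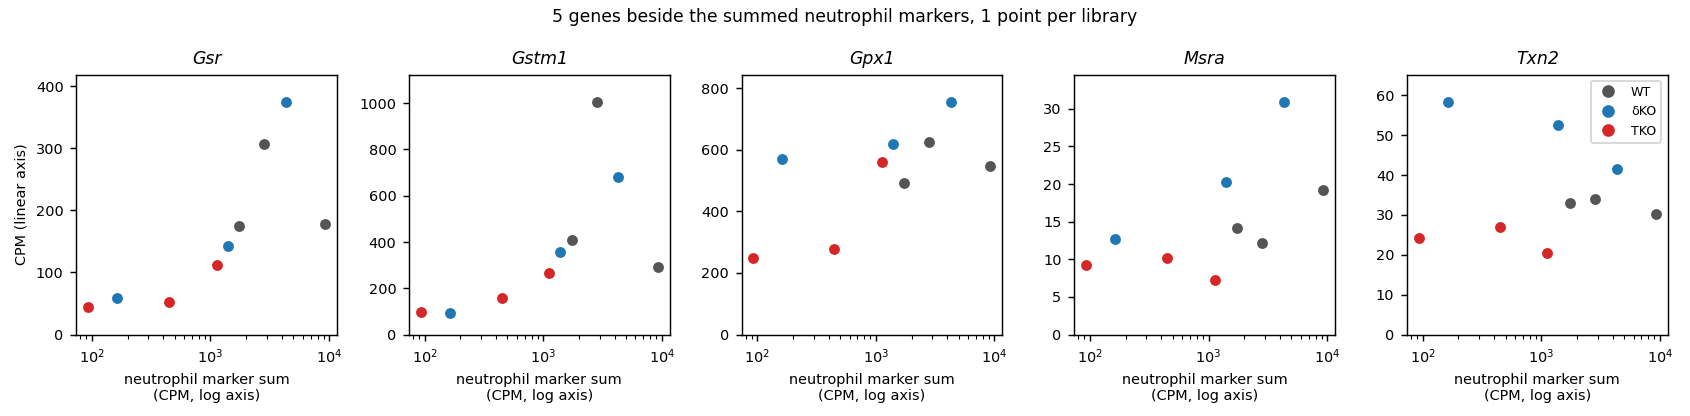
Level of the 5 members with an unadjusted p under 0.05 in edgeR (vertical linear axes, CPM) against the summed level of 10 neutrophil markers (horizontal log axes, CPM), 1 point per library. Gsr and Gstm1 lie lowest in the 3 libraries with sums of 93.0, 163 and 448 CPM, while the δKO points of Txn2 go from 58.2 to 41.6 CPM as the sum goes from 163 to 4312.

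The genes of glutathione synthesis did not share the order of Gsr. Gclc, the catalytic subunit of the rate-limiting ligase, ranged from 30.6 to 39.4 CPM in WT, 32.1 to 38.1 in δKO and 38.6 to 53.8 in TKO, so TKO lay just above δKO. Its modifier subunit Gclm lay the other way, at 66.5 to 76.1 CPM in WT, 72.6 to 96.9 in δKO and 54.2 to 71.5 in TKO, just below δKO. Gss overlapped throughout, with 9.61 to 16.8 CPM in WT, 7.38 to 21.0 in δKO and 7.92 to 16.2 in TKO. Gsto1, a glutathione transferase of the omega class, spread from 15.7 to 84.4 CPM in δKO, which enclosed WT and TKO.

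NRF2 and its inhibitor KEAP1 were both expressed. Nfe2l2 was at 93.8 to 137 CPM in WT, 105 to 115 in δKO and 69.4 to 106 in TKO, and Keap1 at 11.2 to 14.2, 10.1 to 26.6 and 8.37 to 20.2, with overlap in each comparison. Nqo1, a quinone reductase often read as an NRF2 target, was low at 2.52 to 8.12 CPM in WT, 0.479 to 3.01 in δKO and 3.19 to 9.53 in TKO. Hmox1, which breaks down heme and is induced by stress, had the fewest counts of the 33 genes over all libraries, with 143, 132 and 159 counts in WT replicates 1 to 3, 1 and 49 in δKO replicates 1 and 2, 0 in the unnumbered δKO library and 153, 27 and 3 in TKO replicates 1 to 3. All WT libraries lay above all δKO libraries, and TKO overlapped both. For Nqo1 and for Hmox1 the lowest values were those of δKO replicate 1 and the unnumbered δKO library. These libraries also had the fewest genes detected (18180 and 18500), and the part of this in the low values was not tested. Neither Nqo1 nor Hmox1 had an unadjusted p under 0.05 with edgeR, while DESeq2 on all 9 libraries put Nqo1 under it in TKO against δKO and both genes in δKO against WT, with no call. Hmox2, the constitutive heme oxygenase, ranged from 12.3 to 18.7 CPM in WT, 3.63 to 51.5 in δKO and 9.85 to 12.5 in TKO, and it overlaps Cdip1 on the other strand.

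NRF2 binds the antioxidant response element, whose core reads TGACNNNGC. Promoter windows of 300 bases (250 before to 50 after the start) from RefSeq on GRCm38.p6 were matched for 28 of 33 members, and on either strand 6 of 28 held the core, beside 13.99% of 27025 genes. The 6 stretches are shown because they mark which of the 28 matched members carry this core within these 300 bases. Sites further from the start and the unmatched members were not searched. Since the list was chosen to include NRF2 targets, the number of stretches is not independent of the choice. Each is written 5′ to 3′ on the gene's strand, with the core in capitals, which reads in the reverse complement for all but Nfe2l2.
Nfe2l2, chr2:75704885-75704913, minus strand: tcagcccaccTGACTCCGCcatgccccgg
Srxn1, chr2:152105542-152105570, plus strand: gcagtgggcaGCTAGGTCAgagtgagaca
Gclm, chr3:122245413-122245441, plus strand: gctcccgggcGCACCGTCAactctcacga
Prdx1, chr4:116685456-116685484, plus strand: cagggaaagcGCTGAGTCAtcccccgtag
Txnrd1, chr10:82859104-82859132, plus strand: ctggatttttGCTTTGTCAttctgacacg
Sod1, chr16:90220696-90220724, plus strand: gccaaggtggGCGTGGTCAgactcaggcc
In edgeR, all 3 comparisons left these 6 genes above an unadjusted p of 0.05, while DESeq2 on all 9 libraries put Gclm under it in TKO against δKO and Txnrd1 in δKO against WT, with no call. Txnrd1 and Gclm, both known NRF2 targets, were lower in TKO than in δKO without overlap, while Prdx1, Srxn1, Sod1 and Nfe2l2 overlapped. The separation of Txnrd1 and Gclm was lost in CPM without TMM factors. The FoxO motif GTAAACA, searched the same way, was found in 0 of 28 members, beside 4.05% of genes, so these letters are not in the windows of Cat and Sod2 or any other matched member. A match is a feature of the sequence, not a bound site.

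Ferritin, which stores iron and keeps it from generating radicals, is encoded by Fth1 and Ftl1, and both were steady. Fth1 ranged from 360.05 to 502 CPM in WT, 398 to 466 in δKO and 288 to 498 in TKO. Ftl1 ranged from 243 to 301 CPM in WT, 227 to 252 in δKO and 185 to 282 in TKO. Fold changes of both genes lay below 0 in both comparisons with TKO, with no p under 0.05. The 7 other loci nearly identical to Ftl1 (at least 95% identity over at least 200 bp) held 1.28% as many counts as Ftl1 over all libraries.

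A wider list of 69 oxidant genes was read beside the 33, of which 65 passed the filter. With edgeR's quasi-likelihood test 0 of 65 passed the adjusted test in any comparison. At an unadjusted p under 0.05 there were 0 higher and 5 lower in TKO against WT (4.19% of all genes in either direction, 2.5% lower), 3 higher and 6 lower in TKO against δKO (10.2%, 5.56% lower), and 1 higher and 2 lower in δKO against WT (7.01%). DESeq2 on all 9 libraries called 0, 3 and 1 of them, beside 0.657%, 2.84% and 1.04% of its genes, and DESeq2 on the 2 genotypes compared called 5, 1 and 1, beside 2.96%, 1.52% and 1.03%.

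The NADPH oxidase, which makes superoxide in phagocytes and so stands opposite to the 33 genes, held 3 of the 5 genes lower in TKO than in WT at that p, and all 6 of its tested genes had a fold change below 0. Of all genes, 2.5% were lower at that p and 51.2% had a fold change above 0 in this comparison. Cyba, its membrane subunit p22phox, was at 19.5, 17.2 and 29.5 CPM in WT replicates 1 to 3, 24.7 and 22.8 in δKO replicates 1 and 2, 30.7 in the unnumbered δKO library and 7.50, 12.8 and 6.32 in TKO replicates 1 to 3. TKO lay below both other genotypes without overlap. The fold changes were -1.31 ± 0.452 against WT (log2 ± SE, adjusted p = 1.00) and -1.55 ± 0.455 against δKO (adjusted p = 0.465) by edgeR's quasi-likelihood test, and DESeq2 on all 9 libraries called the second at an adjusted p of 0.00619. DESeq2 on the 2 genotypes compared called both, at adjusted p of 0.0417 and 0.0319. Ncf4, a cytosolic subunit, ranged from 23.9 to 43.6 CPM in WT, 5.07 to 83.9 in δKO and 8.05 to 9.91 in TKO, and DESeq2 on the TKO and WT libraries alone called it at an adjusted p of 1.5e-06, while DESeq2 on all 9 libraries gave 0.389. Its fold change against WT of -1.92 became -0.05 with the neutrophil marker sum as a covariate. Since the WT and TKO sums did not overlap, that fit cannot separate genotype from the sum. Rac2, the GTPase of the complex, ranged from 186 to 308 CPM in WT and 122 to 169 in TKO, without overlap, and its fold change of -0.85 became -0.33 with that covariate, while that of Cyba became -0.87.

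G6pdx, the entry enzyme of the pentose phosphate pathway and a main source of the NADPH that both recycling systems use, was at 127, 103 and 159 CPM in WT replicates 1 to 3, 128 and 88.5 in δKO replicates 1 and 2, 88.7 in the unnumbered δKO library and 45.7, 76.3 and 44.4 in TKO replicates 1 to 3. All TKO libraries were below all others. The fold changes were -1.22 ± 0.306 against WT (log2 ± SE, adjusted p = 1.00) and -0.88 ± 0.304 against δKO (adjusted p = 0.465) by edgeR's quasi-likelihood test. DESeq2 on the TKO and WT libraries alone called the first at an adjusted p of 0.00872, and DESeq2 on all 9 libraries gave 0.0616. Over 20 alternative settings the difference from WT stayed between -1.53 and -1.06.

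In Osgin1 and Gstt2 the lowest values were those of δKO libraries. Osgin1, an oxidative stress-induced growth inhibitor, was at 8.06 to 20.6 CPM in WT, 0.798 to 3.40 in δKO and 6.58 to 16.5 in TKO, and DESeq2 on all 9 libraries called it lower in δKO than in WT (adjusted p = 0.013) and higher in TKO than in δKO (adjusted p = 0.0243). With DESeq2 on the 2 genotypes compared, the first had an adjusted p of 0.0213 and the second of 0.0714. The number of genes detected was lowest in δKO replicate 1 (18180) and the unnumbered δKO library (18500), beside 19703 to 22703 in the others, and with it as a covariate the fold change of Osgin1 went from -2.64 to -1.83 in δKO against WT and from 2.29 to 1.74 in TKO against δKO. Its part in these differences was not tested. Gstt2, a theta class glutathione transferase, was at 3.66 to 10.6 CPM in WT, 1.07 to 3.92 in δKO and 5.24 to 24.5 in TKO, and DESeq2 on all 9 libraries called TKO higher than δKO (adjusted p = 0.0352), which DESeq2 on these 2 genotypes did not (adjusted p = 0.0839). The δKO and WT ranges of Gstt2 overlapped. In edgeR's quasi-likelihood test neither gene was called, with adjusted p of 0.465 for both in TKO against δKO. Glrx2, a mitochondrial glutaredoxin, was at 23.0 to 41.5 CPM in WT, 10.5 to 21.2 in δKO and 28.4 to 45.5 in TKO, where neither tool called it. Slc7a11, the cystine importer that feeds glutathione synthesis, was at 1.38, 1.73 and 31.2 CPM in WT replicates 1 to 3 and at 0.287 to 1.99 in TKO, so that its low p against WT rested on 1 library, and without WT replicate 3 its fold change of -3.72 became -0.84.

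**Figure D5:**
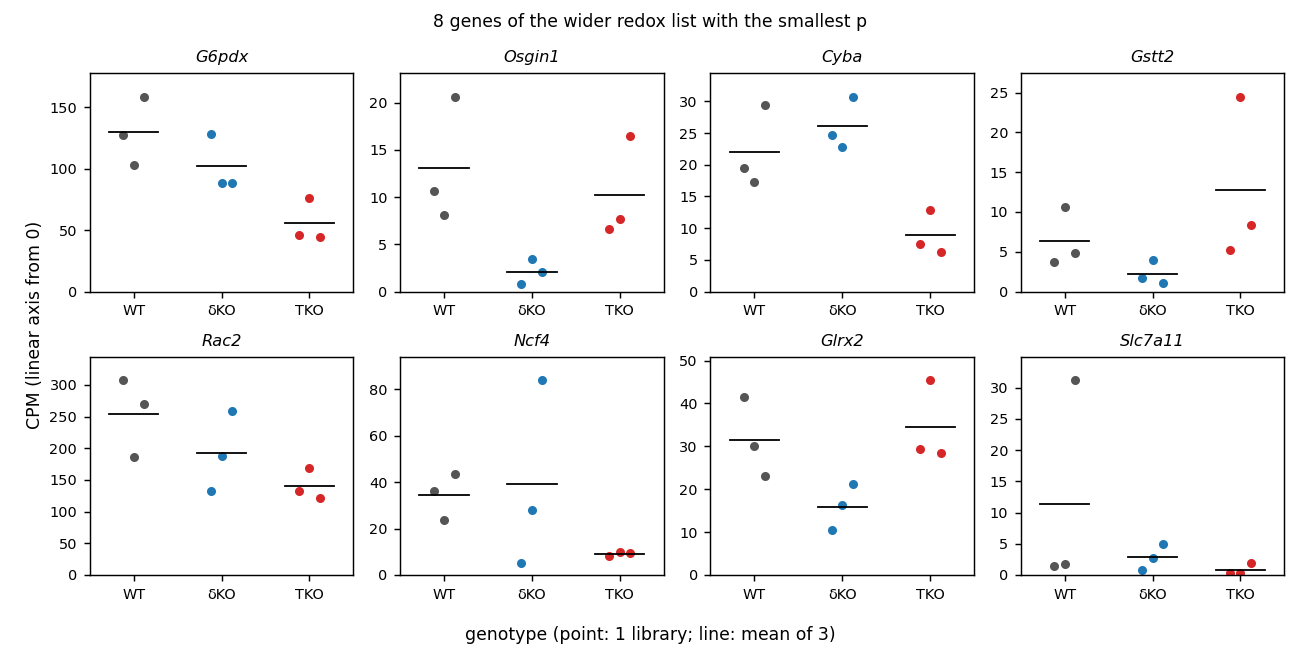
Level of the 8 genes with the smallest p in the wider oxidant list in every library (vertical linear axes, CPM), with a line at the mean of 3 libraries. G6pdx and Cyba lie lowest in the TKO libraries, and Osgin1 and Glrx2 lie lowest in the δKO libraries.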

How the data were processed

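RNA-seq counts of 9 LT-HSC libraries were analyzed. The authors trimmed reads with Trim Galore 0.3.7, checked them with FastQC 0.11.4 and aligned them to mm10 with STAR 2.5.1b, which also counted them per gene, according to the study's methods and the submitters' processing notes, and deposited whole-number read counts for 47643 genes without normalization. The strand setting of the counting, the annotation and how the technical runs were joined were not given in the sources used here. The authors' normalized values were not used. The column of 1 δKO library matches no label's number.

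Identifiers were matched without version to a mm10 annotation (47224 of 47643, of which 39106 with the same version). Counts were filtered with filterByExpr (minimum count 10, minimum total 15) and scaled by TMM, and edgeR 4.0.16 was fitted by quasi-likelihood in R 4.3.3 to all 9 libraries with 1 mean per genotype (6 residual degrees of freedom, and a common coefficient of biological variation of 0.805). A call needed a change over 2-fold and a p under 0.05 after Benjamini-Hochberg adjustment. Standard errors were the absolute log2 fold change divided by the root of F. RPKM used the summed exon length. DESeq2 1.42.0 and 18 other settings were tried, each a single change except the replicate block, which also left out the unnumbered δKO library, and DESeq2 on the genotypes compared, which changed the tool and the libraries. The fits were tested on simulated data. Chi-square per gene between libraries of the same genotype ranged from 128 to 533, so library variation and not counting error set the precision.

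The 33 genes, the wider list and the markers were chosen with earlier results of these data known. Library values were given for members with an unadjusted p under 0.05 or a DESeq2 call on all 9 libraries, fold changes only for such comparisons, and 8 genes of the wider list were named by smallest p. Levels of Hmox1 as counts were added after its values were seen.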

Additional observations from a re-analysis of the deposited data

How the results depend on the processing

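All values are numbers of members or log2 fold changes, and over 20 alternatives no named fold change reversed. Of the calls, 0 in TKO against WT became 2 with DESeq2 on the genotypes compared, and 0 in TKO against δKO became 1 with DESeq2 on all 9 libraries. At an unadjusted p under 0.05, the 2 members in TKO against WT became 4 without a filter on low counts, 4 with the replicate block, 6 with DESeq2 on the genotypes compared and 0 with the neutrophil marker sum as a covariate, and 0 to 6 when a library was left out (0 without WT replicate 1, TKO replicate 1 or TKO replicate 3, 6 without TKO replicate 2). The 4 in TKO against δKO became 7 with DESeq2 on all 9 libraries, 1 without WT replicate 3 and the unnumbered δKO library together, and 1 to 9 when a library was left out (1 without TKO replicate 1, 9 without δKO replicate 1). The 0 in δKO against WT became 1 with RLE factors, 3 with the replicate block, 4 with DESeq2 on all 9 libraries, 2 with DESeq2 on the genotypes compared, 2 without those 2 libraries, and 0 to 5 when a library was left out (5 without δKO replicate 2). The median of TKO against WT was 0.019 with the neutrophil covariate and -0.35 to -0.17 with a library left out. That of TKO against δKO was -0.037 with the replicate block, -0.040 with genes detected per library as a covariate, -0.053 with the neutrophil covariate and -0.42 to -0.12 with a library left out, and that of δKO against WT was -0.01 to 0.11 with a library left out, -0.09 with genes detected and 0.14 with the neutrophil sum as a covariate. Members without overlap were 10 in place of 6 in TKO against WT in CPM without TMM factors (30.3% of members beside 13.9% of all genes). Without factors they were 6 in place of 8 in TKO against δKO (18.2% beside 11.9%) and 3 in place of 4 in δKO against WT (9.09% beside 11.7%). With upper-quartile factors they were 7, 6 and 4 (21.2%, 18.2% and 12.1% beside 14.3%, 11.4% and 11.5%). With a library left out, fewer libraries have to separate. They were then 6 to 16, 9 to 14 and 5 to 10 in the 3 comparisons, beside 21.6% to 30.2%, 17.4% to 28.3% and 16.9% to 32.8% of all genes. Upper-quartile scaling moved the median of all genes by 0.14 in TKO against δKO and by -0.15 in δKO against WT, where the members' medians became -0.14 and -0.15. The neutrophil covariate and the removal of 2 libraries were chosen after seeing the data, and the cause of these changes was not tested. The neutrophil sums of WT and TKO did not overlap, so in TKO against WT that covariate cannot be separated from genotype.

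Same-numbered libraries of different genotypes did not deviate together (correlations of -0.0929 to 0.108 over 7 pairs), so the replicate number was not used as a pairing. The block also left out the unnumbered δKO library, so its values rest on both changes. In TKO against δKO, Gsr was -0.36 with the block and -0.54 without that library alone, and the members' median was -0.037 and -0.12. With 3 libraries a genotype that vary this much, a difference that did not pass the test is not shown to be absent.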
